A study of Rattus norvegicus with 54 samples.

Results

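Hearts of 7 rats that did shift work without food in working hours (WRF) were compared with those of 9 undisturbed control rats (C). By the hour in their names, all were collected in the light phase at ZT1, ZT5 or ZT9, where ZT0 is lights on. These 16 hearts, of 54 in the series, were chosen by the group and hour in each rat's name, and the comparison carried the hour as a covariate. C rats ate and drank freely. WRF rats had water at all times, were placed on working days in a slowly turning drum for most of the light phase, and could eat only outside those hours. W rats, which did the same work with free access to food, are used as a second reference (9 rats at the same hours). All were male wild-type Wistar rats of 7 to 8 weeks at the start of a protocol of 5 weeks, housed alone in 12 h of light and 12 h of dark. Hearts were taken on a Saturday, a day without work on which all rats had food at all times. The frozen hearts, atria and ventricles, were crushed into pieces before RNA was extracted. The animals are separate rats, with 3 C rats at each hour and 3, 2 and 2 WRF rats at ZT1, ZT5 and ZT9.

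The light phase is the resting phase of the rat, in which it normally eats little. On working days the WRF schedule therefore left the fast of the resting phase in place while adding enforced wakefulness. The heart burns mostly fatty acids and carries its own circadian clock, in which Arntl and Clock drive the repressors Per, Cry and Nr1d1 and output genes such as Dbp. Ribosomal proteins and the subunits of the respiratory chain are encoded by large sets of genes that tend to vary together, and interferon-stimulated genes such as Ifit2 and Mx1 are transcribed when interferon reaches a cell.

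Expression is given as fpkm, fragments scaled to transcript length and to the mapped fragments of the library, and every difference is on the scale of log2(fpkm + 1). The table holds 10257 genes and no read counts, and library sizes listed by the study were not used here, so no counting error is given. The sum of fpkm over all genes ran from 373115 to 549453 in C rats (median 466785) and from 465971 to 672323 in WRF rats (median 538334). The ranges overlapped, and the group means differed with p = 0.00935 in an exact permutation test that ignored the hour. Ckm, the muscle creatine kinase, had medians of 1600 fpkm in C and 1650 fpkm in WRF rats, and 2 further WRF libraries, WRF51 and WRF62, were left out by the rule because they lay under 500 fpkm. Levels above 100 fpkm of Myl7, a myosin light chain made in the atria, occurred in 3 C rats (C17, C18 and C27) and 3 WRF rats (WRF46, WRF41 and WRF50). In C27 Myl7 reached 16100 fpkm and the ventricular light chain Myl2 was at 20 fpkm, against at least 2230 fpkm in every other C rat. Of the 7 WRF rats 4 (WRF41, WRF46, WRF50 and WRF55) carry one hour in their title and another in their time label. By the labels WRF46 and WRF55 were taken at ZT21, in the dark phase, WRF41 at ZT5 and WRF50 at ZT1. The titles were used. Arntl was at 13.4 fpkm in WRF50, titled ZT5, where C rats spanned 7.15 to 9.99 fpkm at ZT5 and 10.8 to 14.0 fpkm at ZT1. Dbp was at 28.2 fpkm in WRF55, titled ZT1, where C rats spanned 4.47 to 6.55 fpkm at ZT1 and 18.1 to 21.8 fpkm at ZT5. Results are therefore also given without WRF50 and WRF55, and without C27 where this matters. The fits without WRF50 and WRF55 keep WRF41 and WRF46.

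No gene passed the test between WRF and C hearts: with limma, 0 of 10257 genes had an adjusted p under 0.05. Without adjustment, 709 genes (6.91%) had a p under 0.05, of which 616 (6.01%) were higher and 93 (0.907%) lower in WRF rats. The split depended on the scaling: it was 20 higher and 1615 lower when every heart was scaled to an equal sum, which shifted the median of all genes from 0.02 to -0.20, 315 and 351 with quantile normalization, and 456 and 264 with median-of-ratios scaling. The exact Mann-Whitney test, which ignores the hour, also called 0 genes and gave 690 (6.73%) at an unadjusted p under 0.05. In 0 genes did every WRF rat lie above, or below, every C rat. When each heart was weighted by how closely it followed the fit, 393 genes were called higher and 9 lower. Those weights ran from 0.156 for C27 to 9.30 for C33, so a few hearts carried much of that result. Unadjusted counts are used below as a description of where differences gathered, each to be read against the 6.01% and 0.907% of all genes.

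The smallest p belonged to Borcs8, a subunit of the complex that positions lysosomes along microtubules. It was at 4.29 fpkm in the lowest, 5.18 at the median and 7.89 in the highest C rat, and at 6.98, 9.76 and 11.3 fpkm in WRF rats. All but 1 of the WRF rats exceeded every C rat, the exception being WRF46 with 6.98 fpkm. The log2 difference was 0.76 ± 0.12 (SE), with an adjusted p of 0.131 in limma, and leaving out C19 brought it to 0.81 with an adjusted p of 0.0481. Inha, which encodes the alpha subunit of the hormone inhibin, was at 4.30, 6.49 and 9.50 fpkm (lowest, median and highest) in C and at 7.87, 11.3 and 24.1 fpkm in WRF rats. Again only WRF46 fell within the range of C rats, and the log2 difference was 0.90 ± 0.16 (adjusted p = 0.245). Both genes had W rats at intermediate medians, 7.77 fpkm for Borcs8 and 8.57 fpkm for Inha, with W ranges that covered most of the other groups' values (4.25 to 10.7 fpkm and 2.75 to 28.2 fpkm).

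The other genes with small p and higher values in WRF rats had small, even differences. Wfdc1, a secreted protein with a protease inhibitor domain, was at a median of 68.4 fpkm in C (53.8 to 107) and 111 fpkm in WRF rats (94.7 to 131). Calm3, 1 of the genes for calmodulin, was at 93.0 fpkm (78.6 to 123) and 123 fpkm (109 to 154). Hspe1, the mitochondrial co-chaperonin, was at 142 fpkm (105 to 185) and 227 fpkm (138 to 310). Snrpg, a core protein of the spliceosomal particles, was at 64.0 fpkm (42.6 to 92.1) and 88.4 fpkm (73.9 to 125). In each of these genes the ranges of the groups overlapped while most WRF rats lay above the C median. Mien1, Llph, Apopt1, Pla2g5, Tmem242 and Cstb completed the 12, with log2 differences of 0.41, 0.31, 0.38, 0.29, 0.35 and 0.38 and 7 of 7 WRF rats above the C median. The adjusted p was 0.695 for every one of the 10 genes after Inha, so none passed. The sign of Pla2g5, a secreted phospholipase, depended on the libraries left out, and with WRF51 and WRF62 kept the log2 difference was -0.41.

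**Figure D1:**
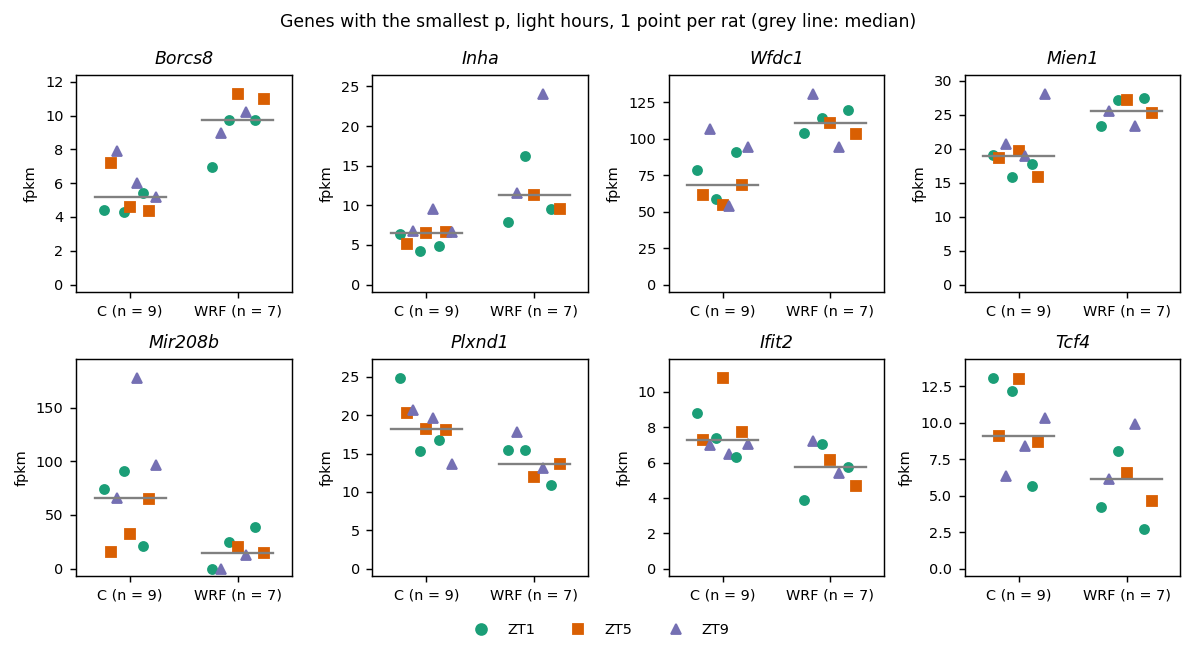
Expression in fpkm (vertical axes, from about 0) of 4 genes with higher and 4 with lower values in WRF rats, 1 point per rat, with colour and shape for the hour and a grey line at the group median. For Borcs8 and Inha 6 of the 7 WRF points lie above every C point, while the groups overlap more widely for Plxnd1, Ifit2 and Tcf4.

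Among genes with lower values in WRF rats, the entry for the microRNA Mir208b had the smallest p. Mir208b lies within Myh7, the gene for beta myosin heavy chain, and its mature forms act on regulators of myosin choice in muscle. In RefSeq the hairpin is at chr15:32421615-32421726 on the minus strand of GRCr8, inside Myh7 at chr15:32416525-32439851. Its mature forms are shown because this entry showed the widest gap among the lower genes. Capitals mark the seed, bases 2 to 8, which differs between both arms.
rno-miR-208b-3p: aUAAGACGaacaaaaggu
rno-miR-208b-5p: aAGCUUUUugcucgcguuau
The entry was at 15.5, 65.4 and 178 fpkm (lowest, median and highest) in C rats, and in WRF rats it was listed at 0 in WRF46 and WRF41 and ran up to 39.1 fpkm in WRF55. Every WRF rat lay below the C median, although 3 C rats (C18, C33 and C26) fell within the WRF range. The log2 difference was -2.66 ± 0.80 (adjusted p = 0.695 in limma). W rats ran from 0 to 95 fpkm. Libraries of polyadenylated RNA do not measure the mature forms, and reads in a 112-base entry cannot be told apart from those of unspliced Myh7. Myh7 itself was at 643, 1420 and 2410 fpkm in C and at 658, 1290 and 1670 fpkm in WRF rats, a log2 difference of -0.29 ± 0.25 (adjusted p = 0.725).

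The other genes of this side were at moderate levels. Plxnd1, an endothelial receptor for semaphorins, had medians of 18.2 fpkm in C (13.7 to 24.9) and 13.7 fpkm in WRF rats (10.9 to 17.8). Tcf4, a basic helix-loop-helix transcription factor, had 9.12 fpkm (5.67 to 13.1) and 6.14 fpkm (2.72 to 9.90). Cd38, an enzyme that consumes NAD, had 5.72 fpkm (3.88 to 8.09) and 4.11 fpkm (2.45 to 6.68). The groups overlapped in each. Svil, an actin-binding protein of muscle, Adgrl2, an adhesion receptor, Ppp1r3d, which targets protein phosphatase 1 to glycogen, and Dusp7, a phosphatase of MAP kinases, had log2 differences of -0.40, -0.41, -0.31 and -0.28. Zfp958 was at -0.35, and the interferon-stimulated genes Ifit2 and Eif2ak2 are described with their group.

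The clearest gathering of differences was among the cytosolic ribosomal proteins. Of 78 genes in the table, 46 were higher at an unadjusted p under 0.05 (6.01% over all genes) and 0 lower, 78 had a positive difference, and the median log2 difference was 0.34 against 0.02 over all genes. Rps27, of the small subunit, was at 870, 1170 and 1500 fpkm (lowest, median and highest) in C and at 1320, 1520 and 1990 fpkm in WRF rats. Rpl41, the smallest protein of the large subunit, was at 869, 1550 and 2180 fpkm in C and at 1650, 2090 and 2890 fpkm in WRF rats. In both genes 7 of 7 WRF rats lay above the C median while the ranges overlapped, with log2 differences of 0.42 ± 0.14 and 0.52 ± 0.18 (adjusted p = 0.695 for each in limma). The count rested on single rats: 8 members were left without WRF2 and 76 without WRF3, and the median stayed between 0.24 and 0.45. It also rested on the scaling, since with equal sums or quantile normalization 1 member was left and the median was 0.08 or 0.06.

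The difference in ribosomal proteins was not alike at the 3 hours. The median log2 difference of the list was 0.59 at ZT1, 0.56 at ZT5 and -0.18 at ZT9, against 0.09, -0.01 and -0.03 over all genes. The mean of the list was taken in each rat relative to each gene's mean over the C rats. In C rats it was -0.67, -0.02 and 0.06 at ZT1 and -0.24, -0.17 and 0.08 at ZT5, but 0.20, 0.32 and 0.44 at ZT9. In WRF rats it was 0.22, 0.28 and 0.53 at ZT1, 0.28 and 0.73 at ZT5 and 0.02 and 0.26 at ZT9. All WRF rats lay above all C rats at ZT1 and at ZT5, and at ZT9 the C rats had come to the level of the WRF rats or above it. In the test for a difference among the hours, 24 of the 78 genes had an unadjusted p under 0.05, against 5.51% of all genes (565, with 0 called in limma), and without WRF50 and WRF55 there were 37. At ZT9 the values rest on 2 WRF rats, and C27 is 1 of the 3 C rats. The sum of fpkm over all genes also varied with the hour. In C rats it ran from 373115 to 478854 at ZT1, from 431402 to 466785 at ZT5 and from 504299 to 549453 at ZT9. In WRF rats it ran from 538334 to 602225 at ZT1, and was 529023 and 672323 at ZT5 and 465971 and 536784 at ZT9. The list was not computed by hour with equal sums, and the part of the sum in these values was not tested.

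**Figure D2:**
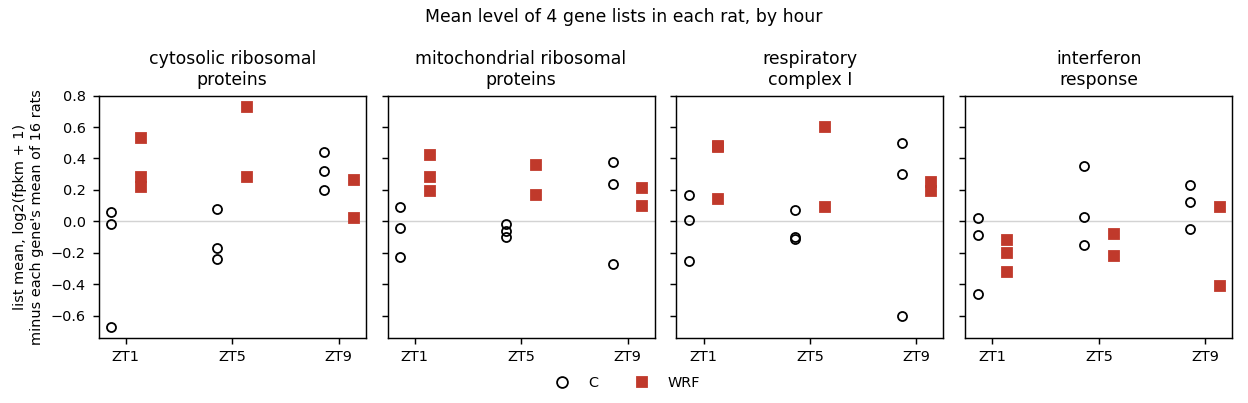
Mean of each gene list in each rat by the hour in its title, C as open circles and WRF as filled squares. The vertical axis is log2(fpkm + 1) minus each gene's mean over the C rats, although its label names 16 rats. For the cytosolic ribosomal proteins all WRF points lie above all C points at ZT1 and at ZT5, and at ZT9 the C points run from 0.20 to 0.44 against 0.02 and 0.26. With equal sums the median difference of this list is 0.08. The mitochondrial list is also apart at ZT1 and ZT5, although its median difference is -0.01 with equal sums, and complex I, whose median is -0.15 with WRF51 and WRF62 kept, is apart at ZT5 but overlaps at ZT1 and ZT9. The groups overlap at every hour for the interferon response.

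Promoters of the ribosomal protein genes are shown because all 78 differences had one sign. Of the list, 63 genes matched a RefSeq promoter on GRCr8, and 30 of them (47.6%) held CGGAAG, the core bound by ETS factors, on either strand within the 250 bases before the start. The share was 28.5% over the 8148 matched promoters of genes in the table and 13.9% over all 33469 promoters. Of the 46 members with an unadjusted p under 0.05, 39 matched and 18 (46.2%) held it. Both examples run 5′ to 3′ toward the start, with the motif in capitals. Rps21 is at chr3:187723788-187724037 on the plus strand and Rpl41 at chr7:1563498-1563747 on the minus strand.
Rps21: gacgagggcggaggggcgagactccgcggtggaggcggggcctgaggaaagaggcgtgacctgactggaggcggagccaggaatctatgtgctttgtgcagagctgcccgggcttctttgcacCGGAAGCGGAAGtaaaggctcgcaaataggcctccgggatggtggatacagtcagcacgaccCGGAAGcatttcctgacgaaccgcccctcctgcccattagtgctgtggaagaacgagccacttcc
Rpl41: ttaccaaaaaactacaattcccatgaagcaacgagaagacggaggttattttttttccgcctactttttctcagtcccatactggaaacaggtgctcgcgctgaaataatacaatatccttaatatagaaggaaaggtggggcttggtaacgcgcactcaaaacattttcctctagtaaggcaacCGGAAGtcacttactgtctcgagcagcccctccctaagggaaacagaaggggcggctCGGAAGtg
A match describes the letters in this window and is not a binding site.

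Mitochondrial genes encoded in the nucleus also measured higher in WRF rats. Among 72 mitochondrial ribosomal proteins, 33 were higher at an unadjusted p under 0.05 and 0 lower, with a median log2 difference of 0.25 that was -0.01 with equal sums. Mrps18a, of the small mitochondrial subunit, was at 29.8, 37.1 and 49.5 fpkm in C and at 43.9, 47.0 and 63.6 fpkm in WRF rats (0.39 ± 0.12). Among 34 subunits of respiratory complex I, 13 were higher and 0 lower, with a median of 0.34, and among 42 genes of complexes II to IV and the ATP synthase 11 were higher and 0 lower, with a median of 0.33. Ndufa12, an accessory subunit of complex I, was at 318, 499 and 734 fpkm in C and at 572, 661 and 738 fpkm in WRF rats (0.37 ± 0.15). Cox8a, a subunit of cytochrome oxidase, was at 201, 299 and 357 fpkm and at 318, 379 and 503 fpkm (0.40 ± 0.13), and Uqcrh, a subunit of complex III, at 597, 751 and 1170 fpkm and at 875, 1010 and 1350 fpkm (0.44 ± 0.15). For all 4 genes the groups overlapped, every WRF rat was above the C median, and the adjusted p was 0.695 in limma. The lowest Ndufa12 value was that of C27, the heart rich in atrial RNA. Without C27 the 33, 13 and 11 genes became 24, 6 and 6, without WRF2 complex I had 0, and without C35 it had 29. With quantile normalization the medians were 0.15 for the mitochondrial ribosomal proteins, 0.06 for complex I and 0 for the other complexes, with 4, 0 and 0 genes at an unadjusted p under 0.05. With WRF51 and WRF62 kept the respiratory medians were -0.15 for complex I and -0.15 for the others.

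Further lists of housekeeping genes leaned the same way with smaller differences. The spliceosome had 13 of 56 genes higher and 0 lower (median 0.12, but -0.11 with equal sums), led by Lsm5, which binds U6 RNA and had medians of 29.8 fpkm in C and 41.4 fpkm in WRF rats. The proteasome had 7 of 44 higher and 0 lower (median 0.15, but -0.11 with equal sums), with Psma4, a subunit of the 20S core, at 64.0 and 78.2 fpkm. Ribosome biogenesis had 8 of 47 higher (17%, against 6.01% over all genes), among them Polr2f, a subunit shared by the RNA polymerases, at 95.6 and 143 fpkm. Single rats left out moved this count between 5 (without C25) and 21 (without WRF3). Lysosome and autophagy had 6 of 61 (9.84%, nearer the share of all genes), among them Atp6v1f of the proton pump at 70.8 and 86.3 fpkm. That count ran from 4 to 15 with single rats left out. Neither list was computed with other scalings. The antioxidant and hypoxia list had 6 of 34 higher and 1 lower, with 1 higher without WRF2 and 9 without WRF3. In it Gpx1, the main glutathione peroxidase, was at 354, 493 and 718 fpkm in C and at 548, 728 and 782 fpkm in WRF rats (0.50 ± 0.15), and Gpx4, which reduces lipid peroxides, at medians of 261 and 337 fpkm. Translation factors (3 of 43), DNA replication and cell cycle (3 of 43) and aminoacyl-tRNA synthetases (1 of 35) were near or under the share of all genes, and 0 of each were lower. These counts rested on single rats: translation factors had 18 without WRF3 and 1 without C25, and DNA replication 7 without C27 and 0 without C25.

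**Figure D3:**
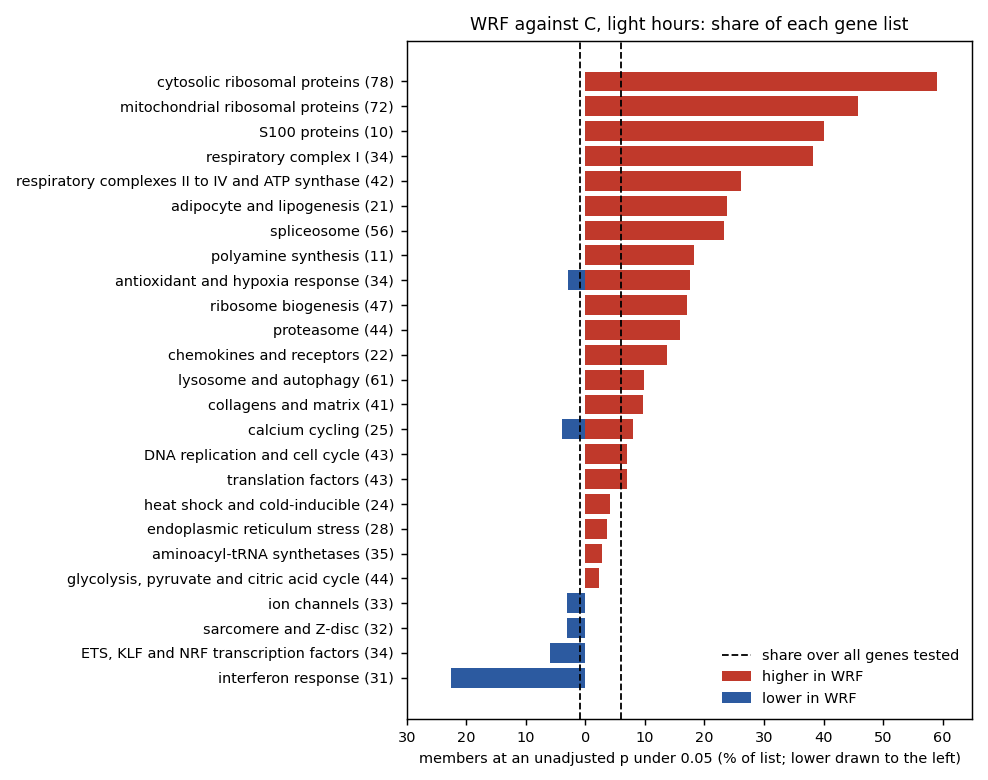
Share of each gene list, in percent, whose members had an unadjusted p under 0.05 in the limma test of WRF against C hearts at light hours, higher to the right and lower to the left; the number of genes in the table is in parentheses, lists with no such gene are left out, and dashed lines mark the 6.01% and 0.907% of all genes tested. The cytosolic ribosomal proteins (46 of 78) and the mitochondrial ones (33 of 72) stand far to the right, and the interferon response (7 of 31) to the left. After scaling to equal sums 1 cytosolic and 0 mitochondrial ribosomal genes were higher at this p.

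Interferon-stimulated genes leaned lower in WRF rats. Of 31 measured genes 7 were lower at an unadjusted p under 0.05 (0.907% over all genes) and 0 higher, with a median log2 difference of -0.20 against 0.02 over all genes. Ifit2, which binds foreign RNA, was at 6.31, 7.29 and 10.8 fpkm (lowest, median and highest) in C and at 3.86, 5.77 and 7.21 fpkm in WRF rats (-0.37 ± 0.13). Mx1, a GTPase that blocks viruses, was at 1.41, 2.96 and 5.55 fpkm in C and at 1.43, 1.61 and 2.34 fpkm in WRF rats (-0.45 ± 0.17). In both genes 7 of 7 WRF rats lay below the C median while the ranges overlapped. Ifih1, a sensor of double-stranded RNA, had medians of 2.01 and 1.49 fpkm (-0.39 ± 0.14), and Eif2ak2, the kinase that halts translation upon sensing such RNA, 7.36 and 6.17 fpkm (-0.24 ± 0.09). Ifit3 had medians of 4.49 and 2.91 fpkm, the antiviral enzyme Rsad2 5.49 and 3.78 fpkm, and Mx2 6.58 and 4.97 fpkm. The adjusted p was 0.695 for each of the 7 in limma. The median stayed negative under the 3 other scalings (-0.39 with equal sums, -0.19 with quantile normalization, -0.21 with median-of-ratios scaling), and single rats left out moved the count between 4 (without WRF50) and 11 (without C25). Without WRF50 and WRF55 1 gene was left at an unadjusted p under 0.05 and the median was -0.18, and with WRF51 and WRF62 kept the median was 0.13. With the weights for each heart, Ifit3, Mx1, Mx2 and Oasl were among the 9 genes called lower (adjusted p = 0.0309, 0.0282, 0.0415 and 0.0405), together with the interferon-induced GTPase Igtp.

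The promoters of these genes were searched for a motif of the interferon response. The list was picked for that response, so a high share describes the choice of list and not the difference between WRF and C rats. Of 22 that matched in RefSeq, 15 (68.2%) held GAAA followed by any 2 bases and GAAA, the repeat to which interferon-activated factors bind, on either strand within 250 bases before the start, against 2.64% of the promoters of genes in the table and 3.41% of all promoters. Of the 7 genes above, 5 matched and 4 (80%) held it. Shown, with the motif in capitals, are the 3 of these 4 with the smallest p, Ifih1 (chr3:67683969-67684218, minus strand), Eif2ak2 (chr6:21940904-21941153, plus strand) and Ifit3 (chr1:241527076-241527325, plus strand, where the motif reads on the opposite strand).
Ifih1: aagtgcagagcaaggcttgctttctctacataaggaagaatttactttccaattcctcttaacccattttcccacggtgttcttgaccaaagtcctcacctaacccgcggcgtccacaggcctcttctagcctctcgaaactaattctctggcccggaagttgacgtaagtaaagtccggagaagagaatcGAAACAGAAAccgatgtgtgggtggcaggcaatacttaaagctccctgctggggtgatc
Eif2ak2: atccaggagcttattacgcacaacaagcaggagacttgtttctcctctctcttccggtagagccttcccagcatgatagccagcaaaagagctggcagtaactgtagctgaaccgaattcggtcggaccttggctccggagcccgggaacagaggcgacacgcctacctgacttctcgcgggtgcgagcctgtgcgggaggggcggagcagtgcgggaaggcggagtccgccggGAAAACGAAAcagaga
Ifit3: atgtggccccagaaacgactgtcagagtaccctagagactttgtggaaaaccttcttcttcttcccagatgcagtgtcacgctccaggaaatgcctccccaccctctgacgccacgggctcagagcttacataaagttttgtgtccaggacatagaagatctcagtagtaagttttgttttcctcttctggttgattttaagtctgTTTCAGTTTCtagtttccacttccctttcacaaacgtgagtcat

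Genes of fat tissue and of the matrix spread widely between rats. Of 21 adipocyte and lipogenesis genes 5 were higher at an unadjusted p under 0.05 and 0 lower (median 0.46). Scd, a fatty acid desaturase, was at 0.171, 0.457 and 3.36 fpkm in C and at 0.402, 5.47 and 71.8 fpkm in WRF rats, a log2 difference of 1.92 ± 0.70. Pck1, which feeds glycerol synthesis in adipocytes, was at 0.0657, 0.289 and 7.09 fpkm and at 1.17, 3.18 and 93.3 fpkm (1.78 ± 0.70). Cfd, the secreted adipsin, was at 3.85, 8.28 and 39.7 fpkm and at 8.59, 20.8 and 70.3 fpkm (1.16 ± 0.49). WRF55 was the highest of the 16 rats in all 3 genes, WRF46, WRF50 and WRF41 also exceeded every C rat in Scd, and WRF1, WRF2 and WRF3 lay within the range of C rats in each (adjusted p = 0.695 for each in limma). WRF46, WRF50 and WRF41 were the WRF rats with Myl7 above 100 fpkm. Myl7 was at 90.6 fpkm in WRF55 and at 13.4, 4.4 and 4.33 fpkm in WRF1, WRF2 and WRF3. In the C rats with Myl7 above 100 fpkm, the mean of the adipocyte markers was 2.2 in C18, 1.05 in C27 and -0.4 in C17. In the other C rats it ran from -0.68 to -0.13. At an unadjusted p under 0.05 the list had 5 genes with Myl7 as a covariate (median 0.42) and 2 among rats at or under 100 fpkm (0.52). The fat hormone Adipoq reached 103 fpkm in the highest WRF rat and 23.8 fpkm in the highest C rat. The summed level of the 4 adipocyte markers in the table ran from 15.1 to 93.9 fpkm in C and from 17.9 to 279 fpkm in WRF rats, and its part in these differences was not tested. Without WRF50 and WRF55 0 genes of the list were left at an unadjusted p under 0.05. In crushed heart tissue a different number of cells of a type and a different amount of RNA per cell cannot be told apart.

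Of 41 collagen and matrix genes 4 were higher and 0 lower (median 0.17). Postn, a matrix protein of activated fibroblasts, was at 0.799, 1.34 and 7.79 fpkm in C and at 1.74, 4.65 and 11.5 fpkm in WRF rats (0.98 ± 0.38). Col1a1, of type I collagen, was at 32.5, 48.1 and 103 fpkm and at 39.4, 76.4 and 120 fpkm (0.58 ± 0.24), with the highest C value in C27. Its partner Col1a2 was at medians of 30.6 and 44.3 fpkm (0.39 ± 0.23, adjusted p = 0.708). Eln, elastin, and Timp1, an inhibitor of matrix proteases, were the other members, with log2 differences of 1.1 ± 0.47 and 0.60 ± 0.28. The 4 highest Col1a1 values were those of WRF41, C27, WRF46 and WRF50, which all had Myl7 above 100 fpkm. Of the 12 fibroblast markers, summed at 1170 to 3110 fpkm in C and 1350 to 2250 fpkm in WRF rats, 2 were higher. Without C27 the matrix list had 15 genes at an unadjusted p under 0.05 and the fibroblast markers 7, and without WRF50 the matrix list had 0. The atrial markers, summed at 106 to 56000 fpkm in C and 82.2 to 24900 fpkm in WRF rats, and their part in the differences was not tested.

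**Figure D4:**
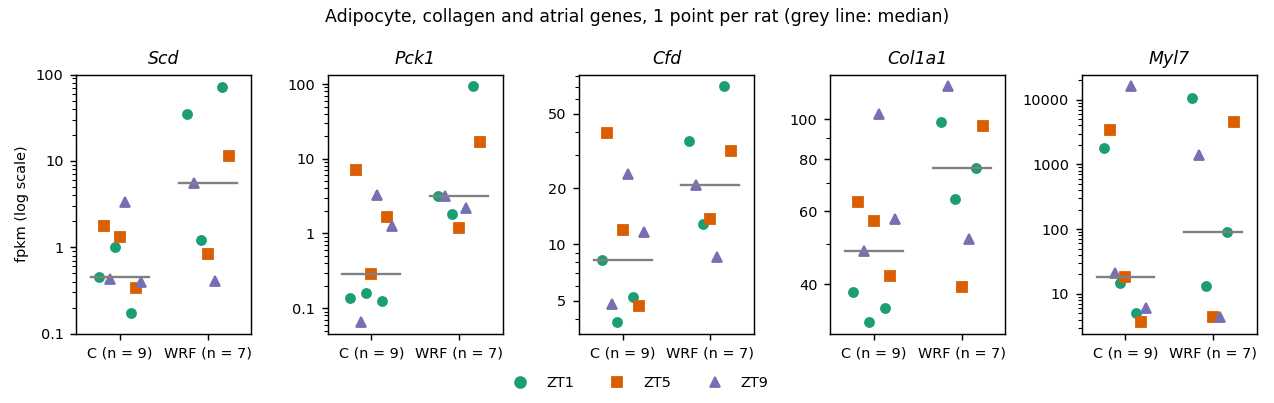
Expression in fpkm (logarithmic vertical axes, a scale for each gene) of the adipocyte genes Scd, Pck1 and Cfd, the collagen gene Col1a1 and the atrial light chain Myl7, 1 point per rat, with colour and shape for the hour and a grey line at the group median. The highest Scd and Pck1 values, 71.8 and 93.3 fpkm, belong to 1 WRF rat at ZT1, and Myl7 spans 3.70 to 16100 fpkm in C and 4.33 to 10500 fpkm in WRF rats.

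Small calcium-binding S100 proteins and chemokines were among the named inflammatory genes. Of 10 S100 genes 4 were higher and 0 lower (median 0.30), but 0 with equal sums (median 0.05) and 2 with quantile normalization (median 0.18), and 2 without any one of C25, C34, WRF46, WRF1 and WRF50. S100a4, of fibroblasts and immune cells, was at 22.8, 50.5 and 90.2 fpkm in C and at 50.7, 76.1 and 104 fpkm in WRF rats (0.64 ± 0.21), and S100a6 had medians of 199 and 225 fpkm. Of 22 chemokines and receptors 3 were higher and 0 lower. Ccl21, which draws lymphocytes to lymphatic vessels, was at 11.2, 30.9 and 49.1 fpkm in C and at 24.1, 56.7 and 83.9 fpkm in WRF rats (0.93 ± 0.31), Ccl24, an eosinophil attractant, had medians of 3.18 and 5.03 fpkm, and Ccl5 17.7 and 18.3 fpkm with 1 high WRF rat at 49.0 fpkm. All had an adjusted p of 0.695. Ccl9 was at 1.34 and 1.68 fpkm, Thy1 at 1.54 and 2.38 fpkm, the protease gene Ctsk at 8.92 and 11.7 fpkm, Igf1 at 9.28 and 16.2 fpkm and Agt at 0.428 and 1.92 fpkm, with adjusted p of 0.695 to 0.708. Of the macrophage markers 0 of 12 had an unadjusted p under 0.05 (4 without C26), although 12 had a positive difference (median 0.31). Of the T cell markers 1 of 8 did (3 without WRF3), and 8 were positive (median 0.23). Neutrophil markers gave 0 of 4 and mast cell markers 2 of 4, with Cma1 at 3.80 and 5.03 fpkm and Cpa3 at 2.33 and 3.04 fpkm.

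The fuel and contraction lists gave few or no such genes. Fatty acid uptake, storage and oxidation had 0 of 44 in either direction (median 0.03), glucocorticoid and FoxO responses 0 of 26, immediate early genes 0 of 22, and glycolysis, pyruvate and citric acid cycle 1 of 44 (Tpi1, 0.26 ± 0.10). A p that misses the threshold does not show that the groups were alike. Of 32 sarcomere and Z-disc genes 1 was lower (Xirp2, -0.49 ± 0.21), of 25 calcium cycling genes 2 were higher and 1 lower, and of 33 ion channels 1 was lower (Kcnd3, -0.30 ± 0.12). Hcn4, the pacemaker channel, was at medians of 2.13 fpkm in C and 0.987 fpkm in WRF rats (adjusted p = 0.695). Of 34 ETS, KLF and NRF transcription factors 0 were higher and 2 lower (median -0.16). There were 11 lower with equal sums, 7 with median-of-ratios scaling, 7 with quantile normalization, 11 without C35 and 0 without any one of C17, C25, C26, WRF46, WRF2, WRF55 and WRF50, and the median was 0.08 with WRF51 and WRF62 kept. Klf13 was at 2.83 and 1.58 fpkm and the endothelial factor Erg at 8.33 and 5.86 fpkm, and Elk1 was at 13.3 and 13 fpkm (-0.09 ± 0.09). Of 12 endothelial markers 1 was higher and 1 lower, the latter being the VEGF receptor Kdr at 19.2 and 15.3 fpkm.

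Of the core clock genes, 0 of 12 had an unadjusted p under 0.05 when the hours were averaged, while single genes differed by hour. Nr1d1, a repressor of Arntl, was at 5.81, 6.22 and 8.03 fpkm in the C rats at ZT1, at 36.6, 40.2 and 45.7 fpkm at ZT5 and at 57.3, 62.8 and 67.9 fpkm at ZT9. In WRF rats it was at 9.88, 18.4 and 32.1 fpkm at ZT1, at 24.5 and 40.3 fpkm at ZT5 and at 37.1 and 41.3 fpkm at ZT9. WRF rats were above all C rats at ZT1 and below them at ZT9. The log2 difference was 1.33 at ZT1, -0.36 at ZT5 and -0.66 at ZT9, with p = 0.00111 and adjusted p = 0.874 in limma for a difference among the hours, with 0.00129 and 0.852 without WRF50 and WRF55. Dbp, an output of the clock, was at 118 to 142 fpkm in C at ZT9 and at 65 and 94 fpkm in WRF rats, with log2 differences of 1.07, -0.19 and -0.73 by hour (adjusted p = 0.876, and 0.762 without WRF50 and WRF55, in limma). Ciart, a repressor within the clock, followed with 0.42, -0.05 and -0.95 (adjusted p = 0.874). The time labels in place of the titles put 2, 2 and 3 WRF rats at ZT1, ZT5 and ZT9. WRF42 and WRF52, titled ZT13, then counted as ZT9, and WRF41 as ZT5. In WRF41 Dbp was at 94 fpkm, where C rats spanned 18.1 to 21.8 fpkm at ZT5 and 118 to 142 fpkm at ZT9. Its Arntl was at 0.934 fpkm, against 7.15 to 9.99 fpkm and 0.403 to 1.29 fpkm in those C rats. The part of the assigned hours in the following p was not tested. By the labels the unadjusted p in limma was 2.83e-05 for Dbp (adjusted p = 0.29). It was then 0.000436 for Ciart, 0.000356 for Nr1d1 and 0.000913 for Arntl, which had 0.673 by the titles (adjusted p = 0.945 for each of the 3 by the labels). Arntl lay at 6.00 to 11 fpkm in WRF and 10.8 to 14.0 fpkm in C rats at ZT1, and at 0.934 and 1.1 fpkm in WRF and 0.403 to 1.29 fpkm in C rats at ZT9.

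**Figure D5:**
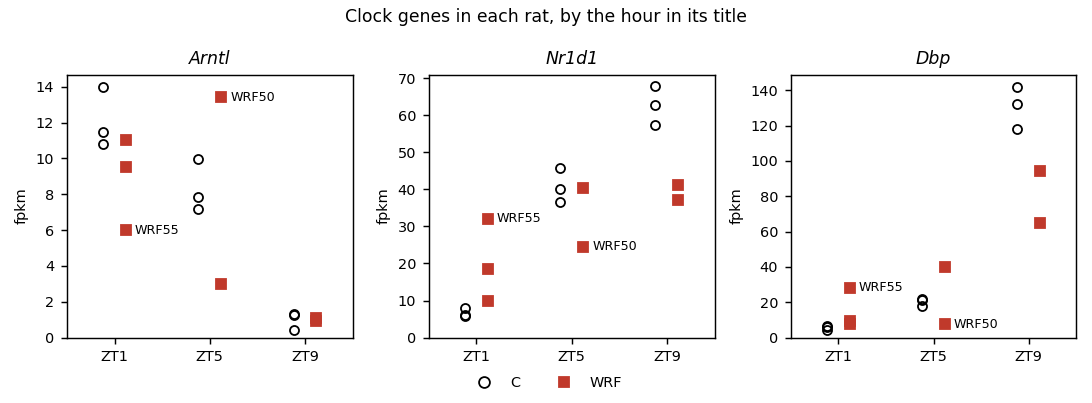
Arntl, Nr1d1 and Dbp in fpkm (vertical axes) in each rat by the hour in its title, C as open circles and WRF as filled squares, with WRF50 and WRF55 named. Nr1d1 and Dbp of both WRF rats at ZT9 lie below the 3 C rats, with Nr1d1 (41.3 and 37.1 fpkm) inside the range of C rats at ZT5, and the Dbp of WRF55 (28.2 fpkm, ZT1) lies above the C rats of ZT5.

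Over all genes the test among the 3 hours called 0 in limma with 565 (5.51%) at an unadjusted p under 0.05. Penk, the precursor of enkephalins, had the smallest p: in C rats it was at 40.1, 66.0 and 101 fpkm at ZT5 and 4.27, 11.2 and 17.2 fpkm at ZT9, and in WRF rats at 6.85 and 18 fpkm at ZT5 and 51.7 and 65.9 fpkm at ZT9 (p = 0.000285, adjusted p = 0.874). Irx2, a homeobox factor, had log2 differences of -0.35, -1.31 and 1.3 at ZT1, ZT5 and ZT9. Without WRF50 1 gene was called, Treml1 of platelets (adjusted p = 0.00212), named here after its value was seen. Among the lists above the 5.51% were fatty acid uptake, storage and oxidation (10 of 44, median -0.17 at ZT5 and 0.22 at ZT9), spliceosome (8 of 56) and the mesothelial markers (5 of 6), a cell layer of the heart's surface. At ZT9 the mean of the fatty acid list was -0.65 in C27, 0.15 and -0.16 in the other C rats and 0.10 and 0.02 in WRF rats. The mesothelial mean was 2.14 in C27, 0.25 and 0.40 in the other C rats and -0.11 and -0.86 in WRF rats. Counts of these lists by hour were not computed without C27.

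The same comparison at the dark hours (9 WRF and 9 C rats) was set beside the light hours. With 34 rats, 0 genes were called for a change of the WRF minus C difference between light and dark hours. An unadjusted p under 0.05 was found for 54 genes (0.526%). The phases follow the titles. By the time labels WRF46 and WRF55 belong to the dark hours, and WRF42 and WRF52 to the light hours. With the labels 0 genes were called, with 70 higher and 69 lower at an unadjusted p under 0.05 in limma. The dark medians below were not computed by the labels. A gene that is not called may still differ between the phases. The cytosolic ribosomal proteins had a median log2 difference of 0.39 in the dark beside 0.34 in the light (0.08 with equal sums in the light). The mitochondrial ones had 0.21 beside 0.25 (-0.01 with equal sums in the light), complex I 0.28 beside 0.34 and the interferon list -0.09 beside -0.20. None of the members of these 4 lists had an unadjusted p under 0.05 for the difference between the phases. Gadd45b, a stress response gene, had the smallest p (light minus dark -0.69 ± 0.16, p = 0.000174, adjusted p = 1), being at -0.11 in the light and 0.58 in the dark. Nppb, the natriuretic peptide of stretched muscle, was at -0.60 in the light and 1.01 in the dark (light minus dark -1.61 ± 0.55). The atrial markers had a median difference of 0.45 in the light and 1.94 in the dark. Their part in the difference of Nppb was not tested. Hpd, an enzyme of tyrosine breakdown, was at 0.50 in the light and -0.75 in the dark.

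Against W rats of the same hours, which worked with food, 0 genes were called in limma and 729 (7.11%) had an unadjusted p under 0.05, 453 (4.42%) higher and 276 (2.69%) lower. W minus C, which shares its C rats with the main comparison, had 0 called and 183 (1.78%), 113 (1.1%) higher and 70 (0.682%) lower. The cytosolic ribosomal proteins had a median of 0.15 for WRF minus W with 0 of 78 at an unadjusted p under 0.05, and of 0.18 for W minus C with 0. The mitochondrial ribosomal proteins had 0.24 with 23 of 72 higher and 0.03 with 0, and complex I 0.30 with 11 of 34 and 0.03 with 0. The adipocyte list had 0.48 with 8 of 21 higher and -0.12 with 0, and Scd was at 2.18 for WRF minus W. The interferon list was at -0.15 with 3 of 31 lower and -0.02 with 0, with Ifit2 at -0.39 for WRF minus W and 0.02 for W minus C. Without WRF50 and WRF55 the 453 and 276 genes became 135 and 126.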

How the data were processed

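Hearts of 54 rats were sequenced, and the 16 described here were 7 WRF and 9 C rats at ZT1, ZT5 and ZT9. The authors purified polyadenylated RNA, made libraries with a directional kit, aligned the reads to rn6 with TopHat2 and computed the deposited FPKM values with Cufflinks, with versions and annotation not given in the sources used here. The deposited table keeps genes over 1 fpkm in at least 18 rats. It gives no counts, and library sizes listed by the study were not used here, so the precision that depth gives was not computed. In it 433 values are 0, and 259 entries repeat the values of another. All differences were fitted on log2(fpkm + 1) with limma 3.58.1 in R 4.3.3 (trended empirical Bayes, Benjamini-Hochberg adjustment over 10257 genes, threshold 0.05), with the hour as a factor. Further fits took WRF by hour, light against dark hours and W rats. Each rat is a separate animal.

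The members and the 56 gene lists (35 of pathways, 21 of cell types) were chosen with earlier results of these data known. Genes were named by smallest p among those over a mean of 5 fpkm with one sign at all 3 hours (12 on each side), up to 4 per list, with clock genes and genes the study plots. Some genes that the rule names are not reported here. Alternatives were scalings, filters, weights for each heart, the time labels, a Myl7 covariate and rats left out. Leaving out WRF50 and WRF55, and keeping only rats with Myl7 at or under 100 fpkm, were chosen after seeing the data. Promoters and microRNAs came from RefSeq (GRCr8), a build other than rn6, and were matched by symbol. The code was tested on simulated data.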

Additional observations from a re-analysis of the deposited data

Results flagged for a closer look

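Mien1 stood out in 1 C rat: C35 had 28.1 fpkm and the next C rat 20.7 fpkm, a gap of 0.539 of the range of the group. It was the only one of 68 groups of values tested to pass this limit, which chance passes in about 1 of 20. The libraries left out held high levels of genes of other tissues. Ager, a gene of lung epithelium, was at 1420 fpkm in WRF51, where the highest C rat had 4.79 fpkm. Cd3e, a gene of T cells, was at 106 fpkm in WRF62, where the highest C rat had 2.91 fpkm.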

How the results depend on the processing

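With weights for each heart limma called 393 genes higher and 9 lower for WRF against C, and 2 higher and 1 lower for WRF against W. Leaving out single rats gave 0 to 1 gene called higher against C and 0 to 1 in the test among hours, where leaving out WRF50 and WRF55 gave 1. Pla2g5 reversed to -0.41 with WRF51 and WRF62 kept. At an unadjusted p under 0.05, the 616 higher and 93 lower genes against C became 20 and 1615 with equal sums, 456 and 264 with median-of-ratios scaling, 315 and 351 with quantile normalization, 2499 and 164 with weights and 272 and 53 without WRF50 and WRF55, and single rats left out moved them from 294 (without C25) to 1401 (without WRF3) and from 29 (without WRF2) to 673 (without C35). With a mean of at least 5 fpkm 44 were lower, with a Myl7 covariate 357 were lower, and among rats with Myl7 at or under 100 fpkm 310 were higher. The 565 genes of the test among hours became 122 without WRF3, 1453 without C27, 155 with WRF51 and WRF62 kept and 1695 with weights, whose estimate stopped short of its convergence tolerance in this test but not in the other 3 weighted fits. The 453 higher and 276 lower genes against W became 44 and 647 with equal sums, 268 and 556 with quantile normalization and 2173 and 494 with weights. The 25 higher and 29 lower genes of the light and dark difference became 5 and 89 with equal sums, 70 and 69 with the time labels and 126 and 123 with weights. Against W there were also 144 lower with a mean of at least 5 fpkm, 518 with median-of-ratios scaling, 160 with the time labels and 586 with a Myl7 covariate, 1008 higher with WRF51 and WRF62 kept, 135 higher and 126 lower without WRF50 and WRF55, and 225 to 935 higher and 124 to 489 lower with single rats left out (lowest without WRF55, highest without WRF3). The light and dark difference also gave 13 and 18 with a mean of at least 5 fpkm, 39 higher with median-of-ratios scaling, 40 with WRF51 and WRF62 kept and 42 with a Myl7 covariate, 60 lower without WRF50 and WRF55, and 19 to 38 higher and 14 to 61 lower with single rats left out. The causes were not tested. No paired analysis was possible because no rat number occurs in both C and WRF. Depth was not used, and 2 or 3 WRF rats per hour limit every value by hour.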
